A study of Mus musculus with 18 samples.

Results

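The 10 genes described here encode parts of BMP and Nodal signalling and the Id family that BMP signalling switches on. They are the ligands Bmp4 and Bmp7, the secreted Nodal antagonists Lefty1 and Lefty2, the inhibitory Smads Smad6 and Smad7, and the target genes Id1, Id2, Id3 and Id4. They were taken by symbol from the 37224 genes of the count table, with no measured value in the rule, and all 10 passed the filter on low counts in both cell types. The list was, however, chosen with earlier results of these data known, so counts over its members are descriptive. RNA was sequenced in 18 libraries of cells differentiated from C57BL/6 mouse embryonic stem cells, as 6 groups of 3 libraries. Neuromesodermal progenitors (NMPs), which give rise to spinal cord and paraxial mesoderm, were wild type or Hoxb1 null. Neural progenitors either did not express Hoxb1 or expressed it, the latter being those given doxycycline (DOX), and each kind was grown with or without SAG, an agonist of Smoothened that turns on hedgehog signalling. Hoxb1 and doxycycline therefore cannot be told apart, and nor can SAG and the library set, because the library numbers run from 2533 to 2538 with SAG and from 7390 to 7395 without it. The sources used here do not say which line or clone each group came from, which part of Hoxb1 the null cells lack, or whether the 3 libraries of a group are separate differentiations. The p-values measure only the spread between these libraries, which may be technical.

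BMP ligands bind paired serine/threonine kinase receptors that phosphorylate Smad1, Smad5 and Smad9. With Smad4 these carry the signal to the nucleus, where Id genes and Smad6 are among the direct targets. Nodal signals through activin-type receptors and the coreceptor Tdgf1 to Smad2 and Smad3, and it induces its own inhibitors, Lefty1 and Lefty2. In the neural tube BMPs come from the roof plate and pattern dorsal fates, opposite to hedgehog from the floor plate. Id proteins bind E proteins such as Tcf3, Tcf4 and Tcf12 and keep neurogenic factors off DNA.

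Hoxb1 itself checked the labels. Its level, in CPM (reads scaled to library size, with TMM factors over all 18 libraries), was 254 ± 16.1 (SD, n = 3) in wild-type NMPs and 15.3 ± 0.844 in null NMPs, in which 234 to 291 reads per library were still counted. In neural progenitors without Hoxb1 it was 0.358 ± 0.288 CPM without SAG and 0.459 ± 0.0662 CPM with SAG. Where Hoxb1 was expressed it was 323 ± 16 CPM without SAG and 592 ± 21.2 CPM with SAG, so the induced level also differed with SAG (log2 change 0.87, SE 0.0371, edgeR adjusted p = 2.11e-19). Gli1, a direct hedgehog target, stood at 153 ± 9.59 CPM without SAG and 138 ± 10.3 CPM with SAG in cells without Hoxb1 (adjusted p = 0.161). In cells with Hoxb1 it rose with SAG from 73.7 ± 1.68 to 180.0 ± 17.7 CPM (adjusted p = 9.04e-07). Among other hedgehog-responsive genes, chosen after their values were seen, Ptch1, which encodes the hedgehog receptor, rose with SAG from 272 to 604 CPM without Hoxb1 and from 194 to 597 CPM with it (adjusted p = 6.16e-19 and 6.63e-22). Nkx2-2, a marker of the ventral neural tube, increased from 8.03 to 85.8 CPM and from 2.75 to 54.3 CPM (adjusted p = 1.33e-34 and 1.16e-33).

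Total counts per library were 13301476 to 14505711 in neural progenitors without SAG, 22610407 to 26974315 with SAG, and 16523276 to 21141058 in NMPs. The labelled cell types showed in their markers. The 7 neural progenitor markers summed to 1092 to 2376 CPM per library in neural progenitors and 340 to 374 CPM in NMPs, and the 8 NMP markers summed to 24.0 to 134 CPM and 1449 to 1842 CPM. Among the NMPs, replicate 3 of the null group stood apart from replicates 1 and 2 (chi-square per gene 5.07 and 3.93, compared with 2.33 between those 2). In these bulk libraries, fewer cells of a type and less RNA per cell cannot be told apart.

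The stretches just before the starts of Bmp4, Smad6 and Id4 are shown because only these genes had a promoter entry clear of exons. Bmp4 and Smad6 had their highest neural progenitor levels in the same groups, while Id4 did not follow them. RefSeq promoter entries matched 5 of the 10 genes, and those of Id2 and Id3 were left out because they run into an exon of GENCODE vM21. Each window is the 250 bases before the RefSeq start, in the direction of the gene, on GRCm38.p6: chr14:46390670-46390919 on the minus strand for Bmp4, chr9:64022060-64022309 on the minus strand for Smad6 and chr13:48260866-48261115 on the plus strand for Id4, whose RefSeq start lies upstream of the gene start in the count table. Capitals mark the matches found.
Bmp4: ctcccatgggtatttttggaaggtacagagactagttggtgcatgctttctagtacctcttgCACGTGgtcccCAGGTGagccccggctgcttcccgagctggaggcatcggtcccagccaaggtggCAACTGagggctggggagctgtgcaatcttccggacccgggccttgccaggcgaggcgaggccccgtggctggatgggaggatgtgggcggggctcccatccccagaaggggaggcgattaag
Smad6: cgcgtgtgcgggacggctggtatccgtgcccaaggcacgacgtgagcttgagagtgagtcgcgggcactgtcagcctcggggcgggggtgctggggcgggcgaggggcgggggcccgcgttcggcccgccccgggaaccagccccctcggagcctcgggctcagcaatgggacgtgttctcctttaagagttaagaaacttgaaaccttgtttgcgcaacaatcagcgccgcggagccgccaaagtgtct
Id4: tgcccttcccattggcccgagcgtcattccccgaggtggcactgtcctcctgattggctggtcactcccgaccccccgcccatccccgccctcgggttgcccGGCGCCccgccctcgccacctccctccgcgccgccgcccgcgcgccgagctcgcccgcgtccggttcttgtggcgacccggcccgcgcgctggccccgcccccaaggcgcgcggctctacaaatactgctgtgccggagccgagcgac
Both strands were searched for 5 motifs, chosen after the expression values were seen. These were the GC-rich Smad1 and Smad5 element GGCGCC, the Smad box CAGAC, the E-box CANNTG, the Gli consensus GACCACCCA and the Hox and Pbx element TGATNNAT. Bmp4 held 3 E-boxes, starting 188, 177 and 123 bases before the start. Id4 held 1 GGCGCC, 148 bases before the start, and Smad6 held none of the 5 motifs. No matches overlapped. Of 32851 RefSeq promoter windows of the same length, 66.2% held CANNTG, 42.2% CAGAC, 9.59% GGCGCC, 7.68% TGATNNAT and 0.225% GACCACCCA, so a match is a description of these letters only.

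Bmp4 (ENSMUSG00000021835, mm10 chromosome 14, 46383520 to 46390669, minus strand) encodes a ligand that patterns mesoderm and the dorsal neural tube. In wild-type NMPs its 3 libraries read 12.8, 12.1 and 11.7 CPM, and in null NMPs 10.5, 8.20 and 9.56 CPM. Neural progenitors read 3.00, 3.88 and 4.14 CPM, and 4.50, 4.52 and 3.46 CPM with Hoxb1. With SAG they read 13.4, 14.0 and 14.9 CPM, and with Hoxb1 and SAG 19.97, 17.8 and 19.2 CPM. Every library with SAG lay above every other library of the 18, while the groups with and without Hoxb1 overlapped only where SAG was absent. SAG raised Bmp4 by 1.94 on the log2 scale without Hoxb1 (SE 0.115, edgeR adjusted p = 1.26e-18) and by 2.19 with it (SE 0.106, adjusted p = 1.65e-21). Hoxb1 raised it with SAG by 0.43 (SE 0.0713, adjusted p = 3.09e-06). Without SAG the change was 0.19 (SE 0.162, adjusted p = 0.363), and these Hoxb1 changes did not differ by the test (0.24, SE 0.177, adjusted p = 0.301). Null NMPs had less Bmp4 than wild type (log2 change -0.38, SE 0.103, adjusted p = 0.00737), a call lost without null replicate 2 (adjusted p = 0.0596). Predicted genes Gm15217 and Gm15222 overlap Bmp4 on the other strand and held 2 and 79 reads over all 18 libraries. The sources used here do not state the strand setting of the counting.

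Bmp7 (ENSMUSG00000008999, chromosome 2, 172868012 to 172940321, minus strand), a ligand that can pair with Bmp4, was the steadier of these ligands. It read 105, 110.2 and 99.2 CPM in wild-type NMPs and 108, 106 and 114 CPM in null NMPs. In neural progenitors without SAG it read 65.8, 61.4 and 60.7 CPM, and 49.2, 54.6 and 49.7 CPM with Hoxb1. With SAG it read 62.9, 64.1 and 64.4 CPM, and 54.6, 53.6 and 52.6 CPM with Hoxb1. The Hoxb1 libraries were the lower ones at both SAG states with no overlap, and the SAG and no-SAG libraries overlapped at both Hoxb1 states. Hoxb1 lowered Bmp7 with a log2 change of -0.28 without SAG (SE 0.0490, adjusted p = 5.82e-06) and -0.25 with SAG (SE 0.0417, adjusted p = 5.00e-06). No SAG effect was called (0.03, SE 0.0443, adjusted p = 0.564 without Hoxb1, and 0.07, SE 0.0467, adjusted p = 0.201 with it). The NMP groups also overlapped (log2 change 0.06, adjusted p = 0.37). Per kilobase of exon, Bmp7 exceeded Bmp4 in every group, at 15.6 compared with 1.65 CPM per kb in neural progenitors and 13.3 compared with 8.54 CPM per kb with Hoxb1 and SAG.

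Lefty1 (ENSMUSG00000038793, chromosome 1, 180935022 to 180938400, plus strand) encodes a secreted Nodal antagonist of the left side and midline of the embryo. Its libraries read 24.0, 26.0 and 30.5 CPM in wild-type NMPs and 9.58, 14.4 and 17.9 CPM in null NMPs. Neural progenitors read 3.28, 3.38 and 2.45 CPM without Hoxb1 and 0.818, 1.26 and 1.11 CPM with it. With SAG they read 36.2, 35.2 and 34.9 CPM without Hoxb1 and 15.7, 16.1 and 15.4 CPM with it. The null NMPs were the lower ones in NMPs and the Hoxb1 cells the lower ones in neural progenitors, with no overlap in any of these 3 pairs. Null NMPs were 1.93-fold lower (log2 change -0.95, SE 0.208, adjusted p = 0.0172). Hoxb1 in neural progenitors lowered Lefty1 2.84-fold without SAG (log2 change -1.51, SE 0.221, adjusted p = 2.63e-07) and 2.24-fold with SAG (-1.17, SE 0.0593, adjusted p = 2.81e-20). The difference between those changes was not called (0.34, SE 0.236, adjusted p = 0.291). Of the 10 genes, Lefty1 had the largest SAG effect, 11.7-fold without Hoxb1 (log2 change 3.55, SE 0.0958, adjusted p = 2.97e-30) and 14.8-fold with it (3.89, SE 0.141, adjusted p = 7.36e-26). The group with Hoxb1 and no SAG held 12 to 17 reads per library.

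Lefty2 (ENSMUSG00000066652, chromosome 1, 180893108 to 180899103, plus strand), the neighbouring paralog, followed Lefty1 only in part. NMPs held the most, at 185, 199.9 and 213 CPM in wild type and 127, 171 and 206 CPM in null cells, with overlap and no call (log2 change -0.25, SE 0.195, adjusted p = 0.429). Neural progenitors read 6.85, 6.18 and 6.24 CPM without Hoxb1 and 2.39, 3.26 and 3.39 CPM with it. With SAG they read 8.79, 9.75 and 10.4 CPM, and 7.92, 8.65 and 7.79 CPM with Hoxb1. The Hoxb1 libraries were lower at both SAG states without overlap, by more where SAG was absent. Without SAG the fall was 2.12-fold (log2 change -1.08, SE 0.154, adjusted p = 1.34e-07). With SAG it was 1.18-fold (-0.24, SE 0.0899, adjusted p = 0.0255), and the changes differed (0.84, SE 0.179, adjusted p = 2.27e-04). The call with SAG was lost without SAG replicate 2 or 3 (adjusted p = 0.0550 and 0.126) and without Hoxb1 and SAG replicate 1 or 3 (0.0555 and 0.0935), and also with DESeq2 (0.14). In a fit of all 18 libraries, Lefty2 was no longer called for Hoxb1 without SAG (adjusted p = 0.0586) or with SAG (0.464), for their difference (0.234), or for SAG without Hoxb1 (0.0964). SAG raised it by 0.59 without Hoxb1 (SE 0.108, adjusted p = 6.53e-06) and by 1.43 with it (SE 0.134, adjusted p = 1.72e-12).

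The balance of these antagonists therefore differed between groups. Per kilobase of exon, Lefty2 was 4.69 to 5.17 times Lefty1 in the wild-type NMP libraries and 7.75 to 8.93 times in null NMPs. In neural progenitors it was 1.23 to 1.71 times, and 1.74 to 2.06 times with Hoxb1. With SAG it was 0.163 to 0.201 times, and 0.339 to 0.362 times with Hoxb1 and SAG, so Lefty1 exceeded Lefty2 in all 6 libraries with SAG and in none of the other 12. The paralogs share 306 distinct stretches of 50 bases, which is 17.9% of the stretches in the Lefty1 transcripts and 11.9% of those in Lefty2. The sources used here do not say how reads from shared stretches were counted, so the split between these genes is uncertain. No other pair of the 10 genes shares such a stretch.

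Smad6 (ENSMUSG00000036867, chromosome 9, 63953076 to 64022059, minus strand) encodes an inhibitory Smad that acts mainly on BMP receptors and is itself a BMP target. It read 9.37, 9.61 and 9.07 CPM in wild-type NMPs and 6.94, 7.87 and 9.19 CPM in null NMPs, which overlapped (log2 change -0.23, SE 0.112, adjusted p = 0.136). Without null replicate 3, the library that stood apart, the NMP change was called (adjusted p = 0.0286). Neural progenitors read 2.50, 3.52 and 3.44 CPM, and 3.48, 3.63 and 3.53 CPM with Hoxb1, from 35 to 51 reads per library, and these groups overlapped (adjusted p = 0.41). With SAG the libraries read 7.45, 7.52 and 6.73 CPM without Hoxb1 and 9.49, 8.92 and 9.07 CPM with it, with no overlap. Hoxb1 raised Smad6 with SAG by 0.34 (SE 0.0905, adjusted p = 0.00194). The change without SAG was 0.18 (SE 0.168), and these Hoxb1 changes did not differ by the test (0.16, SE 0.192, adjusted p = 0.546). SAG raised it by 1.2 without Hoxb1 (SE 0.131, adjusted p = 1.07e-10) and by 1.37 with it (SE 0.122, adjusted p = 4.91e-13).

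Smad7 (ENSMUSG00000025880, chromosome 18, 75367529 to 75395935, plus strand), which inhibits both BMP and Nodal or TGF-beta receptors, had the same order in neural progenitors. It read 15.5, 13.1 and 12.9 CPM, 17.0, 15.7 and 14.9 CPM with Hoxb1, 23.1, 22.6 and 20.3 CPM with SAG, and 28.1, 29.5 and 28.3 CPM with both. Hoxb1 raised it with SAG by 0.39 (SE 0.0599, adjusted p = 9.89e-07). Without SAG the groups overlapped and the change of 0.21 (SE 0.0888) missed the threshold with an adjusted p of 0.0506, but it passed without neural progenitor replicate 1 (adjusted p = 0.0131) or Hoxb1 replicate 3 (0.0367). The Hoxb1 changes with and without SAG did not differ by the test (0.18, SE 0.107, adjusted p = 0.2065). SAG raised Smad7 by 0.67 without Hoxb1 (SE 0.0766, adjusted p = 2.96e-10) and by 0.85 with it (SE 0.0716, adjusted p = 8.00e-14). In NMPs it read 18.7, 15.8 and 17.4 CPM in wild type and 18.2, 17.7 and 17.4 CPM in null cells, which overlapped (log2 change 0.04, SE 0.0826, adjusted p = 0.744).

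**Figure D1:**
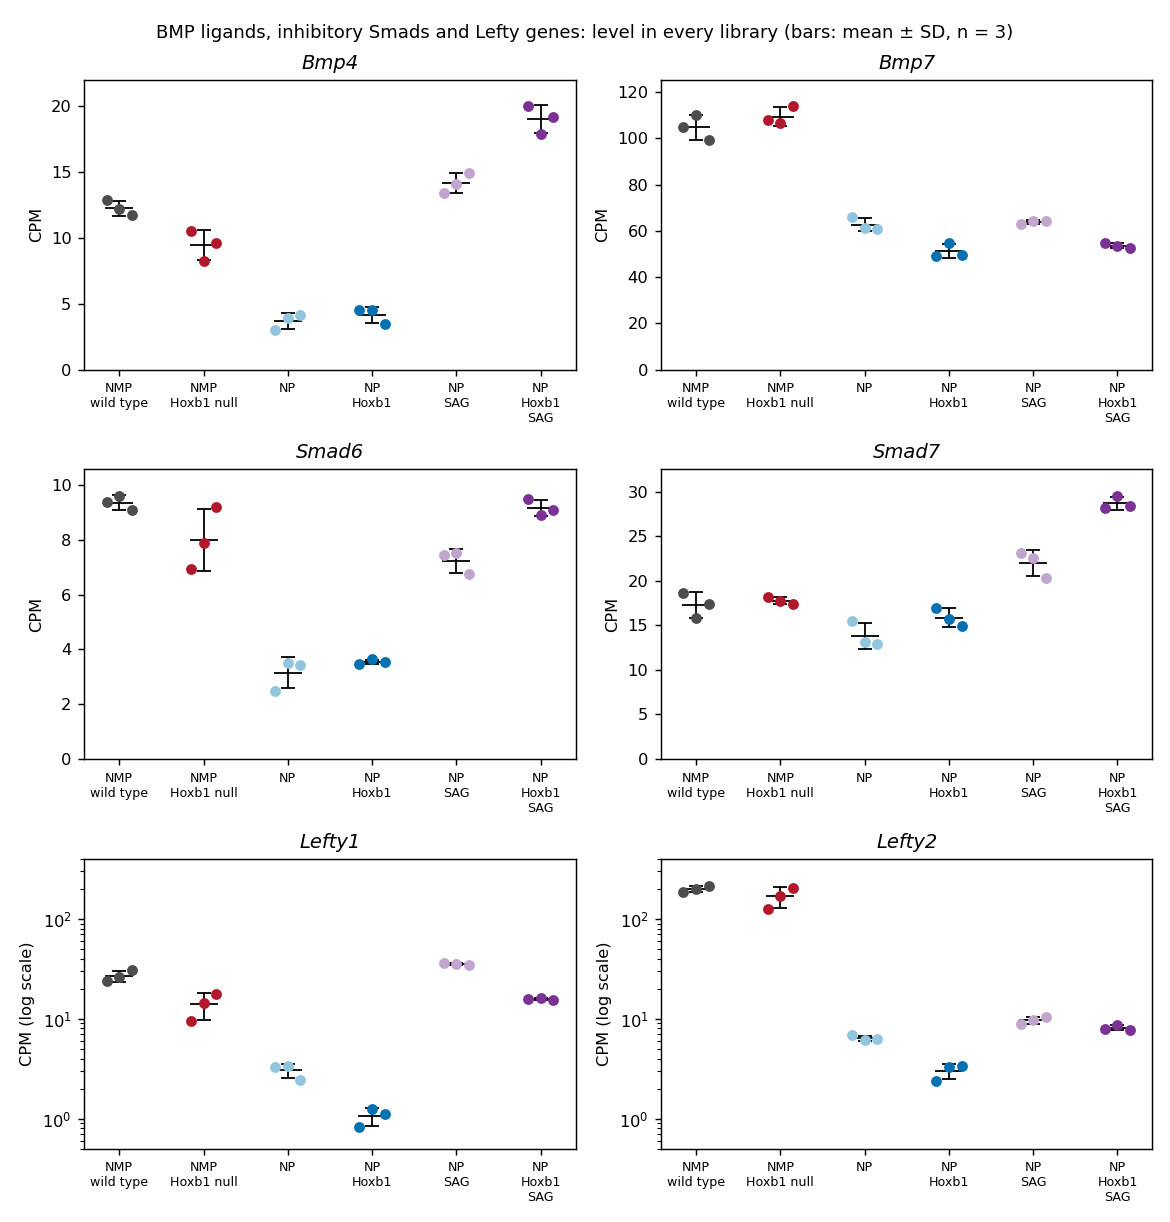
Level in CPM (vertical axis, linear for Bmp4, Bmp7, Smad6 and Smad7 and logarithmic for Lefty1 and Lefty2) of each gene in every library of the 6 groups (horizontal axis). Points are libraries, the long bar is the mean and the short bars mark the SD (n = 3). Bmp4, Smad6 and Smad7 were highest among neural progenitors with Hoxb1 and SAG, Lefty1 was highest with SAG alone (35.4 ± 0.676 CPM), and Lefty2 was highest in NMPs.

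Id1 (ENSMUSG00000042745, chromosome 2, 152736251 to 152737410, plus strand) is a BMP target whose product restrains differentiation. Its libraries read 24.4, 22.9 and 24.9 CPM in wild-type NMPs and 15.6, 20.4 and 19.9 CPM in null NMPs. Neural progenitors read 34.2, 32.8 and 29.3 CPM without Hoxb1 and 51.8, 49.5 and 55.3 CPM with it. With SAG they read 112, 101 and 107 CPM without Hoxb1 and 101, 96.8 and 98.5 CPM with it. None of the neighbouring groups in the order of Id1 levels overlapped, although the lowest SAG library and the highest library with both met at 101 CPM when rounded. Null NMPs were 1.29-fold lower (log2 change -0.36, SE 0.0872, adjusted p = 0.00294). Without SAG, Hoxb1 raised Id1 1.64-fold (log2 change 0.71, SE 0.0578, adjusted p = 9.98e-14). With SAG, Id1 was 1.07-fold lower with Hoxb1 (-0.10, SE 0.0393, adjusted p = 0.0293). That last call was lost without SAG replicate 1 or 3 (adjusted p = 0.166 and 0.0618), without Hoxb1 and SAG replicate 2 or 3 (0.0905 and 0.064), with DESeq2 (0.0885) and with all 18 libraries in the fit (0.0592). The change with SAG differed from that without SAG by -0.82 (SE 0.0699, adjusted p = 1.08e-12). SAG raised Id1 3.32-fold without Hoxb1 (log2 change 1.73, SE 0.05, adjusted p = 4.71e-29) and 1.89-fold with it (0.92, SE 0.0462, adjusted p = 8.78e-21).

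Id2 (ENSMUSG00000020644, chromosome 12, 25093801 to 25096092, minus strand), another inhibitor of basic helix-loop-helix factors, rose with Hoxb1 and with SAG alike. NMPs held little, at 1.11, 1.96 and 1.34 CPM in wild type and 2.46, 1.39 and 1.91 CPM in null cells, or 17 to 39 reads per library. Neural progenitors read 59.1, 46.3 and 46.8 CPM without Hoxb1 and 74.4, 67.3 and 67.0 CPM with it. SAG libraries read 89.5, 86.5 and 89.4 CPM, and 131, 123 and 128 CPM with Hoxb1. The 4 neural progenitor groups formed 4 steps with no overlap, and the NMP groups overlapped (log2 change 0.34, adjusted p = 0.344). Hoxb1 raised Id2 by 0.47 without SAG (SE 0.0734, adjusted p = 5.56e-05) and by 0.53 with SAG (SE 0.0560, adjusted p = 7.45e-07), with a difference of 0.06 (SE 0.0925, adjusted p = 0.649). SAG raised it by 0.80 without Hoxb1 (SE 0.0672, adjusted p = 1.11e-08) and by 0.87 with it (SE 0.0620, adjusted p = 1.45e-09).

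Id3 (ENSMUSG00000007872, chromosome 4, 136143497 to 136145755, plus strand), often expressed together with Id1, reached the highest CPM of the family. It read 18.6, 14.9 and 16.9 CPM in wild-type NMPs and 13.4, 14.8 and 18.6 CPM in null NMPs, which overlapped (log2 change -0.11, adjusted p = 0.502). Neural progenitors read 84.0, 77.5 and 76.4 CPM, and 106, 99.0 and 97.5 CPM with Hoxb1. SAG libraries read 425, 398 and 411 CPM, and 283, 277 and 277 CPM with Hoxb1. The Hoxb1 libraries lay above the others without SAG and below them with SAG, with no overlap in either case. Hoxb1 raised Id3 1.28-fold without SAG (log2 change 0.36, SE 0.0422, adjusted p = 2.23e-09) and lowered it 1.47-fold with SAG (-0.55, SE 0.0319, adjusted p = 1.94e-18). The difference of these changes was -0.91 (SE 0.0529, adjusted p = 6.74e-18). SAG raised Id3 5.19-fold without Hoxb1 (log2 change 2.38, SE 0.0375, adjusted p = 2.63e-38) and 2.76-fold with it (1.46, SE 0.0366, adjusted p = 1.94e-31).

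Id4 (ENSMUSG00000021379, chromosome 13, 48261427 to 48264036, plus strand), a member known from neural precursors, was the Id gene that fell with Hoxb1 at both SAG states. It was low in NMPs, at 0.459, 1.03 and 0.407 CPM in wild type and 0.820, 1.06 and 0.925 CPM in null cells, or 7 to 20 reads per library, and was not called (adjusted p = 0.291). Neural progenitors read 102, 97.0 and 89.8 CPM, and 71.5, 70.5 and 66.1 CPM with Hoxb1. SAG libraries read 100.2, 96.3 and 101 CPM, and 32.3, 30.5 and 29.2 CPM with Hoxb1. The groups without Hoxb1 overlapped, whatever the SAG state, and lay above both Hoxb1 groups, which were far apart. Hoxb1 lowered Id4 1.38-fold without SAG (log2 change -0.46, SE 0.0464, adjusted p = 3.35e-11) and 3.22-fold with SAG (-1.69, SE 0.0452, adjusted p = 5.31e-30). These falls differed by -1.22 (SE 0.0653, adjusted p = 4.32e-19). SAG gave a change of 0.04 without Hoxb1 (SE 0.0419, adjusted p = 0.36) and a 2.27-fold fall with it (log2 change -1.18, SE 0.0501, adjusted p = 1.92e-23).

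**Figure D2:**
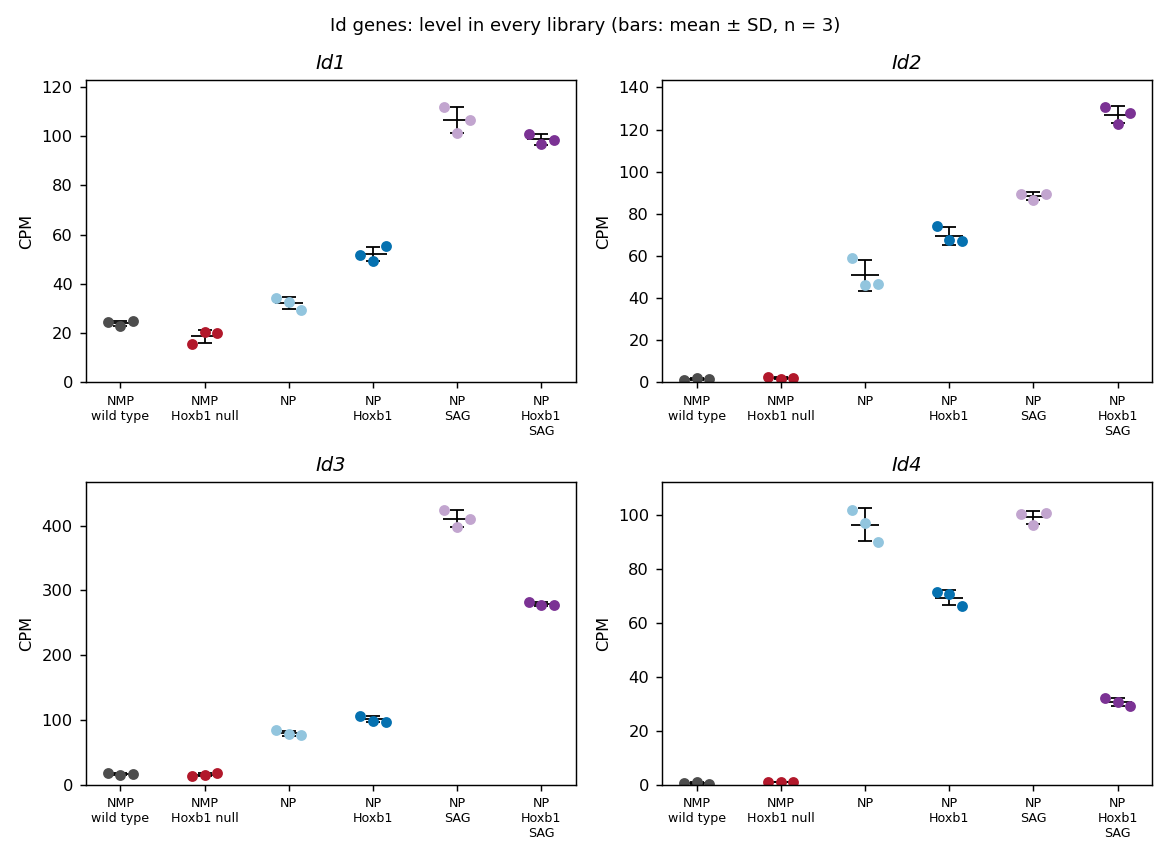
Level in CPM (vertical axis) of the 4 Id genes in every library of the 6 groups (horizontal axis). Points are libraries, the long bar is the mean and the short bars mark the SD (n = 3). Id4 with Hoxb1 and SAG lay at 29.2 to 32.3 CPM, below all other neural progenitor libraries, while Id2 was highest there.

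Summed per kilobase of exon, which puts the 4 genes on a common scale, the Id family reached 31.7 ± 1.25 CPM per kb in wild-type NMPs (SD, n = 3) and 26.8 ± 3.17 in null NMPs. It reached 169.9 ± 13.1 in neural progenitors, 197.9 ± 6.73 with Hoxb1, 450.8 ± 14.6 with SAG and 359.5 ± 7.19 with both. The Hoxb1 sums lay above the others without SAG and below them with SAG, with no overlap. The makeup changed as well as the sum. Id1 made up 65.5% of it in wild-type NMPs. Id4 was the leading member in neural progenitors at 34.2%, and its share was 21.1% with Hoxb1, 13.2% with SAG and 5.14% with both. Id3 took 26.1%, 28.5%, 50.9% and 43.3% in the same order of groups, and Id2 took 23.5%, 27.7%, 15.5% and 27.8%.

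**Figure D3:**
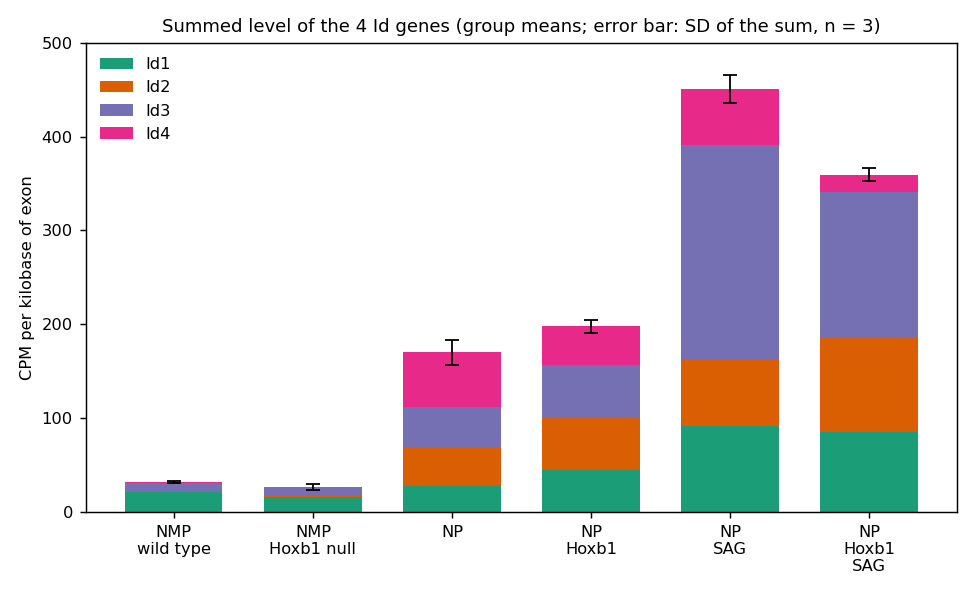
Summed level of Id1 to Id4 in CPM per kilobase of exon (vertical axis) in the 6 groups (horizontal axis). Coloured segments are group means of each gene and the error bar is the SD of the sum (n = 3). The sum was largest with SAG alone, where Id3 made up 50.9% of it.

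In NMPs, null cells were lower for 1 member of each role except the inhibitory Smads. Lefty1, Bmp4 and Id1 were lower in null cells, by 1.93-fold, 1.30-fold and 1.29-fold, and no member was higher. These 3 of 10 compare with 28.8% of all 15032 tested genes called in either direction, and 13.9% called lower. The groups did not overlap for 3 of 10 members and for 41.8% of all genes, and 0 members passed a 2-fold change, which 2.86% of all genes did. The median log2 change was -0.17 over the members and -1.28e-04 over all genes. The other genes of the pathway moved both ways: of 73 tested, 23 rose and 14 fell (median 0.09). Nodal, the ligand that Lefty proteins oppose, was 1.36-fold higher, at 85.5 ± 8.27 compared with 62.7 ± 2.89 CPM (log2 change 0.44, SE 0.0599, adjusted p = 7.60e-06). Among targets of BMP, 6 of 10 rose and 1 fell. The largest changes were in genes at low levels, Gata2 (1.55 to 3.20 CPM, 2.04-fold, adjusted p = 2.49e-04) and Atoh8 (0.783 to 1.99 CPM, 2.49-fold, adjusted p = 6.80e-04). Tbx3, chosen after its values were seen, rose at a higher level (16.7 to 32.2 CPM, 1.92-fold, edgeR adjusted p = 9.97e-10). Of 10 secreted antagonists and modulators, 3 rose, among them the BMP antagonist Grem1 (1.1 to 2.6 CPM, adjusted p = 2.60e-04), and 2 fell, among them Nog, a BMP antagonist (8.85 ± 1.39 to 6.12 ± 0.996 CPM, adjusted p = 0.00332). Bmp2 rose from 7.43 ± 0.414 to 9.46 ± 0.248 CPM (adjusted p = 0.016), and Tcf3 was the E protein that fell (374 to 323 CPM, adjusted p = 0.00442). All 8 NMP markers were lower in null cells, and their sum was 1449 to 1540 CPM compared with 1651 to 1842 CPM. Of 7 tested pluripotency markers 5 were higher, with a sum of 554 to 607 CPM compared with 415 to 441 CPM. Of 7 lateral mesoderm and endothelium markers tested 4 were higher (sum of all 8 at 90.5 to 109.6 CPM compared with 62.3 to 64.3 CPM). Of 7 presomitic mesoderm markers 4 were lower and 1 higher (888 to 966 CPM compared with 1081 to 1197 CPM). Of 7 mesenchyme and fibroblast markers tested 4 were higher and 1 lower, while the sums of all 8 overlapped (159.7 to 172 CPM compared with 162 to 169 CPM). The part of these cell types in the results was not tested.

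In neural progenitors without SAG, members changed with Hoxb1 in both directions, also within the Id family. Id1, Id2 and Id3 rose, while Id4, Bmp7, Lefty1 and Lefty2 fell, and Bmp4, Smad6 and Smad7 were not called. The 7 called members of 10 compare with 46.2% of 16238 tested genes, of which 24.1% were higher and 22.1% lower. At least 2-fold changes were seen in 2 members, both Lefty genes, and in 5.88% of all genes, and 7 members had no overlap, against 53.5% of all genes. Of 11 Nodal, activin and TGF-beta ligands and Nodal coreceptors tested, 4 rose and 2, Nodal and Tdgf1, fell, as the Lefty genes did. Nodal fell 2.31-fold, between means of 4.55 ± 0.380 and 1.96 ± 0.474 CPM (log2 change -1.21, SE 0.180, adjusted p = 3.62e-07), its coreceptor Tdgf1 from 11.2 ± 0.481 to 5.77 ± 0.347 CPM (adjusted p = 8.96e-10), and the target Eomes 4.35-fold (adjusted p = 8.52e-14). Of the 7 Nodal and TGF-beta targets tested, 4 fell and 2 rose. The BMP arm was also mixed, with 4 of 12 BMP targets higher and 4 lower. Msx1 and Msx3, homeobox genes of the dorsal neural tube, rose from 1.04 to 2.10 CPM and from 2.94 to 11.0 CPM (adjusted p = 0.00109 and 2.53e-13). Bmp2 fell from 5.07 ± 0.469 to 2.73 ± 0.365 CPM (adjusted p = 2.67e-05) and Gdf7, a roof plate ligand, fell 3.42-fold (8.83 ± 1.54 to 2.56 ± 0.242 CPM, adjusted p = 2.19e-12). Of 13 secreted antagonists and modulators, 4 rose and 5 fell. Grem1 rose from 0.996 to 5.26 CPM (adjusted p = 1.00e-12) and Bmper, a modulator of BMP activity, from 2.42 to 12.3 CPM (adjusted p = 1.19e-16). Nog was lower (12 ± 1.08 to 9.82 ± 1.22 CPM, adjusted p = 0.0172), and Chrd, another BMP antagonist, was higher (27 ± 1.21 to 30.1 ± 0.926 CPM, adjusted p = 0.0367). Of 14 receptors and coreceptors, 7 rose, led by Bmpr1b and Rgmb (1.92-fold and 1.89-fold, adjusted p = 2.37e-12 and 1.18e-24), and 1 fell. Of the E proteins, Tcf4 rose from 173 to 257 CPM and Tcf12 from 473 to 589 CPM (adjusted p = 1.93e-18 and 3.11e-12).

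With SAG present, all 10 members were called for Hoxb1, 4 higher and 6 lower. The number called was 8 to 10 with 1 library left out, and 8 with DESeq2 or all 18 libraries in 1 fit, each without Id1 and Lefty2. Bmp4, Smad6, Smad7 and Id2 rose by 1.27-fold to 1.44-fold. Id4 and Lefty1 fell 3.22-fold and 2.24-fold, and Id3, Bmp7, Lefty2 and Id1 fell by 1.07-fold to 1.47-fold. The background was 43.4% of genes called, 21.4% higher and 21.9% lower. At least 2-fold changes were 2 of 10 members and 5.02% of all genes, and the groups did not overlap for 10 members and for 50% of all genes. Nodal fell 1.89-fold, between means of 15.6 ± 0.720 and 8.22 ± 0.447 CPM (log2 change -0.92, SE 0.0805, adjusted p = 9.71e-13) and Tdgf1 from 21.6 ± 0.702 to 18.8 ± 0.723 CPM (adjusted p = 0.00571). Of the 11 tested genes in their list of ligands and coreceptors, 4 rose and 4 fell. Tgfb2 was among those that rose (24.9 to 49.1 CPM, edgeR adjusted p = 2.02e-18). Foxh1, the nuclear partner of Smad2 in Nodal signalling, fell 2.13-fold (14.7 ± 0.502 to 6.83 ± 0.240 CPM, adjusted p = 2.07e-14). Of the 7 Nodal and TGF-beta targets, 6 fell and none rose, among them Eomes (4.45 to 2.37 CPM, adjusted p = 2.16e-04) and Gsc (1.13 to 0.343 CPM, adjusted p = 2.84e-05). Of 12 BMP targets, 3 rose and 6 fell, with Dlx5 down 3.63-fold (19.1 to 5.26 CPM, adjusted p = 6.34e-21) and Msx3 up 2.16-fold (adjusted p = 3.66e-05). Bmp6, a further BMP ligand, rose 4.89-fold (1.55 ± 0.0772 to 7.59 ± 1.43 CPM, adjusted p = 4.28e-16). Grem1 rose 15.5-fold (0.377 ± 0.128 to 5.93 ± 0.541 CPM, adjusted p = 1.36e-20), while Nog (17.6 and 17.7 CPM, adjusted p = 0.866), Chrd (21.0 and 19.2 CPM, adjusted p = 0.097) and Bmp2 (5.11 and 4.91 CPM, adjusted p = 0.694) were not called. Tcf4 was the E protein that rose (147 to 189 CPM, adjusted p = 8.73e-13).

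The Hoxb1 effect differed with SAG for 4 of 10 members, Id1, Id3, Id4 and Lefty2, compared with 35.5% of all genes, 16.8% higher and 18.6% lower. Id3 rose without SAG and fell with it, and Id1 rose without SAG and was slightly lower with it. Id4 fell further with SAG and Lefty2 fell less. The induced Hoxb1 level was itself higher with SAG, so SAG and the level of Hoxb1 cannot be told apart in these differences. For 1 member, Id4, the difference reached 2-fold, as for 5.25% of all genes. Among the other pathway genes, 18 of 79 had a higher and 27 a lower Hoxb1 effect with SAG. Tdgf1 was less lowered with SAG (difference 0.74, SE 0.123, adjusted p = 5.60e-06), and that for Nodal was 0.29 (SE 0.202, adjusted p = 0.276). Hey1, a target of BMP and Notch signals, turned direction as Id3 did. It rose with Hoxb1 without SAG (22.4 to 44.3 CPM, adjusted p = 3.66e-18) and fell with SAG (55.6 to 35.5 CPM, adjusted p = 6.11e-16), with a difference of -1.64 (SE 0.0733, adjusted p = 1.36e-21). Bmper had a difference of -2.80 (SE 0.238, adjusted p = 7.89e-13) and Bmp6 of 2.80 (SE 0.346, adjusted p = 1.49e-08). Tcf12 and Tcf4 had smaller Hoxb1 effects with SAG (-0.35 and -0.22, adjusted p = 5.26e-09 and 2.45e-04).

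**Figure D4:**
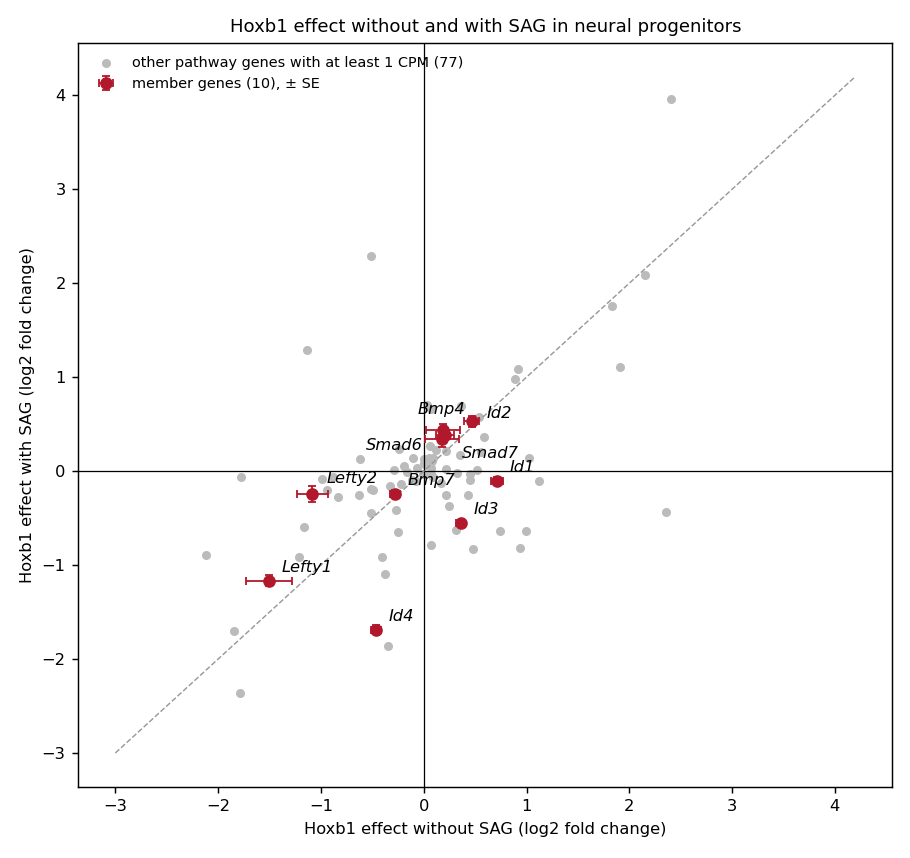
Log2 fold change with Hoxb1 in neural progenitors without SAG (horizontal axis) and with SAG (vertical axis) for the 10 genes (red, with the SE of each test) and 77 other pathway genes with at least 1 CPM (grey). The dashed line marks equal effects. Id3 lies to the right of 0 and below 0 (0.36 and -0.55), Id4 far below the line (-0.46 and -1.69), and the Lefty genes on the side of falls in both.

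SAG raised most members at both Hoxb1 states, against a background in which most genes differed. Without Hoxb1, 8 of 10 members rose and none fell, while 72.7% of all genes were called, 36.5% higher and 36.3% lower. With Hoxb1, 8 rose and 1, Id4, fell, against 72.2% called, 36.4% higher and 35.8% lower. At least 2-fold changes were 5 of 10 members without Hoxb1 (14.9% of all genes) and 6 of 10 with it (15.2%), and the groups did not overlap for 8 and 9 members (75.0% and 74.8%). The median log2 change of the members was 1.00 without Hoxb1 and 1.14 with it, compared with 0.01 over all genes in each. These SAG comparisons share groups with the Hoxb1 comparisons, and depth also differed between the library sets. Nodal rose 3.43-fold without Hoxb1 (4.55 to 15.6 CPM, log2 change 1.78, SE 0.106, adjusted p = 1.64e-18) and 4.19-fold with it (1.96 to 8.22 CPM, 2.07, SE 0.145, adjusted p = 3.42e-16). Tdgf1 rose from 11.2 to 21.6 CPM and from 5.77 to 18.8 CPM (adjusted p = 9.86e-15 and 2.90e-20). Eomes fell 8.10-fold and 3.46-fold. Msx1 rose 7.80-fold and 4.24-fold, and Gdf7 fell 16-fold without Hoxb1 (8.83 to 0.533 CPM, adjusted p = 1.11e-21). Over all pathway lists, 44 rose and 25 fell without Hoxb1, and 40 rose and 28 fell with it, of 79 tested.

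**Figure D5:**
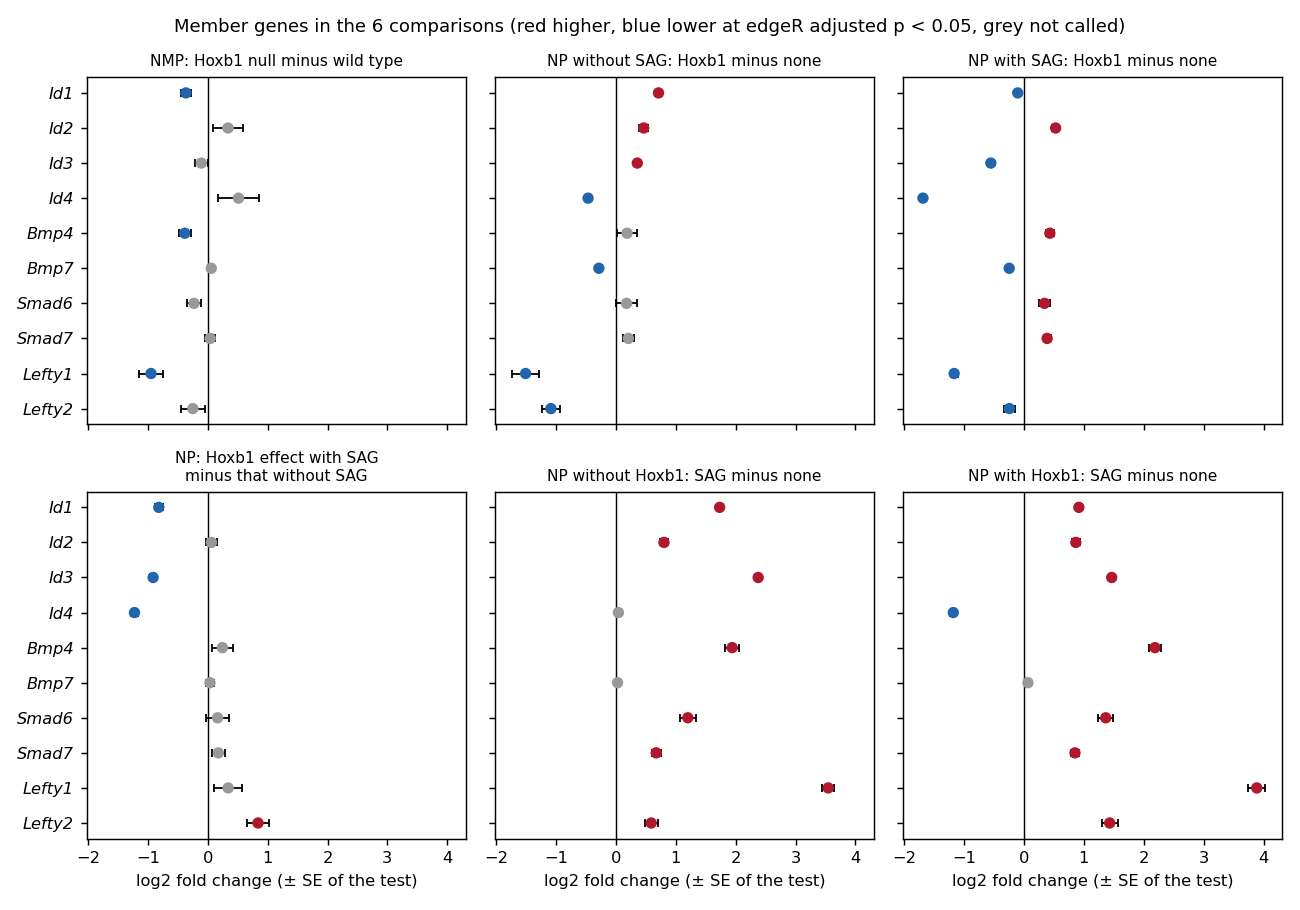
Log2 fold change (horizontal axis, with the SE of the test) of the 10 genes (vertical axis) in the 6 comparisons. Red points were higher and blue lower at an edgeR adjusted p under 0.05, and grey points were not called. In NMPs 3 genes were lower, with SAG present all 10 were called for Hoxb1 (8 to 10 with 1 library left out), and 8 rose with SAG at each Hoxb1 state.

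Markers of other cell types moved with these groups as well. The 8 mesenchyme and fibroblast markers, all detected at 1 CPM or more in the 4 neural progenitor groups, summed to 451 to 479 CPM per library without treatment and 956 to 989 CPM in the Hoxb1 group, and to 2175 to 2210 CPM in the SAG group and 2172 to 2378 CPM in the group with both. Among neural progenitors Bmp4, Smad6, Smad7, Id1, Id2, Id3, Lefty1 and Lefty2 were also higher with SAG, while Bmp7 and Id4 were not. With Hoxb1 alone the mesenchyme sum and Id1, Id2 and Id3 were higher, while Bmp4, Smad6 and Smad7 were not called and the Lefty genes fell. In cells given SAG, the mesenchyme sums with and without Hoxb1 overlapped. There Bmp4, Smad6, Smad7 and Id2 were higher with Hoxb1 and the other members lower. The 8 markers of node, floor plate and endoderm, of which 4 reached 1 CPM without SAG and 6 with it, summed to 77.2 to 84.9, 40.1 to 47.4, 306 to 329 and 214 to 223 CPM in the same order of groups, which is the order of Nodal and Lefty1. The sum of the 8 pluripotency markers gave that order too, at 271 to 310, 135 to 161, 390 to 426 and 346 to 377 CPM. Singly, all 8 fell with Hoxb1 without SAG, and all 8 rose with SAG in Hoxb1 cells. With SAG in cells without Hoxb1, however, 3 rose, 1 fell and 4 were not called. With Hoxb1 in SAG cells, 2 rose, 3 fell and 3 were not called. The sum of 7 neuronal markers was lower with SAG and higher with Hoxb1, at 1032 to 1100, 1544 to 1638, 640 to 667 and 1050 to 1094 CPM. Neural progenitor markers were lowest with both, at 1092 to 1164 CPM, where Id4 was lowest too. With SAG alone, however, their sum was 1485 to 1599 CPM, compared with 2194 to 2376 CPM without treatment, while Id4 was not called (edgeR adjusted p = 0.36). With Hoxb1 alone, the sum and Id4 were both lower than without treatment. Id4 was lower with Hoxb1 alone than with SAG alone, while the sum was higher. The 8 roof plate and dorsal markers summed to 185 to 190, 124 to 133, 68.0 to 70.2 and 86.3 to 90.2 CPM, the 7 neural crest markers to 91.8 to 98.9, 123 to 126, 41.8 to 43.0 and 56.7 to 63.2 CPM. No marker of these 7 lists was at 0 in every library of a neural progenitor group. The part of these cells in the results was not tested.

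For the first gene of each role, the genes with the most similar pattern over the 18 libraries were found among 11189 genes of at least 10 CPM in some group, as Pearson correlations of log2 CPM. Bmp4 was most like Dnajc9 (r = 0.972), Cab39l (0.969) and Ccn1 (0.967), the last of which encodes a matricellular protein. Lefty1 was most like Syce2 (0.982), Taf10 (0.965) and Pkmyt1 (0.962). Smad6 was most like Siva1 (0.974), Hnrnpa0 (0.973) and Mis18a (0.973). Id1 was most like Nde1 (0.991), Ucp2 (0.988) and H2afx (0.985). These libraries share groups, library sets and depth, so the values describe a pattern over 6 groups and not a relation between genes.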

How the data were processed

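RNA of 18 libraries was measured by poly(A)-selected, strand-specific sequencing. Each deposited value is a raw read count for an Ensembl gene, left unnormalized by the authors. Per the submitters' processing notes, bcl2fastq 1.8.2, featureCounts 1.4.6 and mm10 were used. The sources used here do not name the aligner, the annotation release or the strand setting. The deposited table also gives the summed exon length, the base of the per-kilobase levels. Symbols matched 35449 of 37224 IDs.

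Tests used edgeR 4.0.16 in R 4.3.3 (filterByExpr by group, TMM scaling, robust quasi-likelihood F-tests). P-values were adjusted by Benjamini and Hochberg's method across every gene in a fit, with calls made below 0.05. One fit held the 6 NMP libraries (15032 genes, 4 residual degrees of freedom) and another the 12 neural progenitor libraries (16238 genes, 8 residual degrees of freedom). The SE is the log2 change divided by the square root of F. The scripts were tested on simulated data.

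The members and lists were chosen with earlier results of these data known. Of 88 other pathway genes in the table, the text names a fixed set and, per list and comparison, up to 2 called genes with the largest log2 change and at least 1 CPM in the higher group. For 1 gene of each role, the 3 most correlated genes are named. Alternatives were other scalings, filters, DESeq2 1.42.0, all 18 libraries in 1 fit, a replicate block and leaving out each library. Some genes that this rule names are not reported here.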

Additional observations from a re-analysis of the deposited data

Results flagged for a closer look

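The change with Hoxb1 differed between neural progenitors with and without SAG for 4 of the 10 genes by the edgeR test of the difference, compared with 35.5% of all 16238 genes. It was lower with SAG for Id1 (difference -0.82 on the log2 scale, SE 0.0699, adjusted p = 1.08e-12), Id3 (-0.91, SE 0.0529, adjusted p = 6.74e-18) and Id4 (-1.22, SE 0.0653, adjusted p = 4.32e-19). It was higher with SAG for Lefty2 (0.84, SE 0.179, adjusted p = 2.27e-04). Each Hoxb1 change was taken within a library set, while the difference runs across the sets, so SAG and the library set cannot be told apart here. The induced Hoxb1 level was also higher with SAG and cannot be told apart from them either. The Lefty2 call was lost with all 18 libraries in 1 fit (adjusted p = 0.234).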

How the results depend on the processing

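Of the values of the 10 genes in the 6 comparisons under the alternatives, 1093 kept their direction and side of the threshold, 16 lost and 7 gained a call, and 3 turned direction, none of them called: Smad7 in NMPs without wild-type replicate 2 (-0.027, and up to 0.096 with other libraries left out), Id2 in the difference of Hoxb1 effects without neural progenitor replicate 1 (-0.060, up to 0.13), and Id4 for SAG without neural progenitor replicate 3 (-0.0036, up to 0.076). With DESeq2, 1424 genes were called higher in null NMPs, compared with 2244. With all 18 libraries in 1 fit, 0 members were called higher for the difference of effects, compared with 1. For the latter 2 the cause was not tested. With the replicate block, 4 members were called in NMPs (Lefty2 gained, adjusted p = 0.0063) and 8 for Hoxb1 without SAG (Smad7 gained, adjusted p = 0.0439), with no other call changed. Replicate numbers were not taken to pair libraries, since no pair of groups had all 3 correlations of same-numbered libraries over 0.1. In the SAG groups they were 0.0149 to 0.105, and each library of the SAG group without Hoxb1 correlated best with its own number, a hint from the data and not from the design. The stricter filter also called Smad7 there (0.0488), and upper-quartile scaling called Bmp7 for SAG with Hoxb1 (0.029). Levels without TMM factors moved by at most 7.99%, and 21 group means of the 10 genes moved by at least their SD. The median log2 change of all genes was at most 0.065 in absolute value under any setting. At most 51 reads per library lay behind Smad6 and Lefty1 in neural progenitors without SAG, Lefty2 with Hoxb1 and no SAG, and Id2 and Id4 in NMPs, which limits these values.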

Other observations

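Several receptors, ligands and antagonists of the pathway also differed with SAG. Acvrl1 and Tgfbr2, receptors of the BMP and TGF-beta families, rose without Hoxb1 from 1.99 to 9.67 CPM and from 17.6 to 51.6 CPM (edgeR adjusted p = 1.88e-17 and 3.34e-24). Bmp3, a ligand known to oppose other BMPs, rose from 1.75 to 13.4 CPM (adjusted p = 1.62e-22), and Nbl1, a secreted BMP antagonist, from 7.06 to 28.2 CPM (adjusted p = 3.26e-23). The BMP signal carriers Smad1 and Smad5, chosen after their values were seen, were lower with SAG without Hoxb1 (69.2 to 54.1 CPM and 152 to 125 CPM, adjusted p = 1.93e-09 and 3.43e-09), while Smad9, the third of them, was higher (0.947 to 1.99 CPM, adjusted p = 1.11e-04). Of all tested genes, 72.7% were called in this comparison, in which SAG and the library set cannot be told apart.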
